A study of Mus musculus with 97 samples.

Results

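Gene expression in the liver was compared with that in the kidney in young control mice, over the 19253 genes that 2 deposited count tables share by gene symbol. Of the 94 libraries in those tables, 12 belonged to this comparison: 6 livers and 6 kidneys, 3 from males (numbers 40, 41 and 42) and 3 from females (numbers 46, 47 and 48) in each organ. All 12 came from UMHET3 mice, a genetically heterogeneous cross whose animals differ from each other in genome, aged 2 months. All were in the control arm of a study of rapamycin in early life and had received Eudragit, the encapsulating material without the drug, in the diet until 45 days of age. The labels repeat the same 6 numbers in both organs without saying that a number is 1 mouse. Nor do they say how many animals stand behind the libraries, so p-values reflect only how these libraries vary, which may be technical. Both organ labels held against defining markers. Alb, which encodes serum albumin (ENSMUSG00000029368.9, chr5:90460897-90476602, GRCm38), ran from 90000.2 to 271898 CPM (counts scaled to equal library totals) in the livers, and Umod, which encodes uromodulin (ENSMUSG00000030963.5, chr7:119462711-119479282), had 0 counts in all 6 livers and 1215 to 3565 CPM in the kidneys.

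Liver parenchyma is mostly hepatocytes, which secrete most plasma proteins and lipoproteins, make bile acids and urea, buffer blood glucose and clear drugs and hormones. Kidney is a filter in series with a tubule: podocytes hold the filtration barrier, the proximal tubule reclaims glucose, amino acids, phosphate and filtered protein, and the later segments set the salt, water and acid content of urine. The organs also share tasks, among them glucose production, organic acid and drug transport and amino acid metabolism, and both epithelia use the transcription factor HNF4A.

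Gene counts per library ran from 15278374 to 24674372 in the livers and from 13594707 to 20642818 in the kidneys. A few transcripts filled the liver libraries: the top 10 genes took 18.2 to 28.8% of shared-gene counts there and 7.64 to 9.31% in the kidneys, and Alb alone took 10.9 ± 3.37% (SD, n = 6). The trimmed-mean (TMM) scaling factors lay between 0.579 and 0.760 in the livers and between 1.38 and 1.54 in the kidneys. All levels in CPM, above and below, use these factors. Between 10889 and 11213 genes reached 1 CPM in a liver and between 11929 and 12283 in a kidney. Pearson correlations of log2 CPM over genes were 0.918 to 0.975 among livers, 0.943 to 0.979 among kidneys and 0.538 to 0.585 between organs. The 2 tables were also counted differently. Reads tallied as ambiguous were 4.853 to 5.617% in the liver table and 0.732 to 0.925% in the kidney table, and reads outside any feature were 2.772 to 5.193% and 21.196 to 27.504%. Multimapping reads were 5.74 to 10.296% and 1.988 to 2.337%. Each organ has its own table, so organ and counting cannot be told apart for any gene. This covers the 5807 shared genes whose exons overlap another gene in GENCODE M21 (GRCm38), and also those with no overlap.

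Of 13595 genes tested, 9577 (70.4%) differed between the organs at an adjusted p under 0.05 by edgeR's quasi-likelihood test, 4279 of them higher in liver (31.5% of tested genes) and 5298 higher in kidney (39%). Against a threshold of 2-fold, 4994 genes (36.7%) were called, 1847 higher in liver (13.6%) and 3147 higher in kidney (23.1%). Counts of list members below are at an adjusted p under 0.05, to be read beside the shares of 31.5% and 39%. All 6 number-matched pairs had the same direction for 4911 of these 4994 genes. All 6 livers lay above all 6 kidneys for 3189 genes, and below them for 4017. The median log2 difference (liver minus kidney) over all genes was -0.19. The direction of small differences rests on the scaling: with library totals in place of TMM factors 1466 genes were higher in liver and 9777 higher in kidney, and with library sizes that leave out the 50 genes with the highest mean CPM the split was 2279 to 7995. The median of all genes then moved to -1.32 and -0.85. Simulated data gave both organs the kidney means except at the changed genes. There the same test recovered 40% of genes changed 2-fold and 80% of those changed 4-fold (50 genes of each).

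The genes highest in liver encoded secreted proteins. Alb was listed at 90000.2, 158815, 112140.0, 174732, 185091 and 271898 CPM in livers 40, 41, 42, 46, 47 and 48 and at 2.66, 2.78, 3.37, 12.1, 24.1 and 71.5 CPM in the kidneys of the same numbers (log2 difference 14.09, SE 0.58, adjusted p = 2.3e-06). The organs did not overlap, and within the kidneys the 3 female libraries all lay above the 3 male ones. Apoa1, the main protein of high-density lipoprotein, ran from 13790.5 to 34614 CPM in liver and from 0 to 8.03 CPM in kidney (log2 difference 14.60, SE 0.87, adjusted p = 1.9e-05). Ahsg, which encodes the mineral-binding plasma protein fetuin-A, ran from 11398 to 29684 CPM in liver and 0 to 7.60 CPM in kidney (log2 difference 14.92, SE 0.84). Kidney values of Alb, Apoa1 and Ahsg were all highest in kidney 48, and for each of the 3 genes the female kidneys exceeded the male ones. Whether these transcripts were made in the kidney or carried over from liver material was not tested. Apoe, a lipoprotein ligand, was the second most abundant liver transcript at 33239 to 55828 CPM, median 42449, and was present in kidney at 94.6 to 494 CPM, median 248, a smaller gap (log2 difference 7.52, SE 0.38). Among enzymes, Cps1, which starts the urea cycle, ran from 4984 to 7428 CPM in liver against at most 1.12 CPM in kidney, and the drug-oxidising Cyp3a11 from 4957 to 12139 CPM against at most 1.65 CPM. Slco1b2, a hepatic uptake carrier for organic anions, ran from 1265 to 2187 CPM in liver and had 0 counts in 4 kidneys. Apoc2, the activator of lipoprotein lipase, had the largest fitted difference, with 221 to 612 CPM, median 377, in liver and 0 counts in every kidney, at least 19178-fold higher in liver over the floor of 3 counts in the 6 kidneys. Its exons overlap another gene over 646 bases, so its level of 0 cannot be told apart from the counting.

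The genes highest in kidney belonged to named tubule segments. Gpx3, a secreted glutathione peroxidase of the proximal tubule, was the most abundant at 14814 to 21575 CPM, median 19004, in kidney and 3.12 to 7.79 CPM, median 3.78, in liver (log2 difference -12.04, SE 0.32, adjusted p = 1.2e-07). Umod was listed at 1215, 1936, 2102, 2948, 2825 and 3565 CPM in kidneys 40, 41, 42, 46, 47 and 48, at least 57929-fold higher than in the livers, where no library had a count. Kap, the kidney androgen-regulated protein, was listed at 11958, 16348, 14634, 4597, 2672 and 5386 CPM in the same order, so every male kidney was above every female one, and no liver passed 0.136 CPM. Transporters followed. Slc34a1, the phosphate carrier of the proximal tubule, ran from 3481 to 4787 CPM in kidney and had counts in 1 liver. The urate exchanger Slc22a12 (568 to 1436 CPM, median 975), the glucose carrier Slc5a2 (241 to 345 CPM, median 302), the lactate carrier Slc5a12 (446 to 769 CPM, median 555) and the loop cotransporter Slc12a1 (422 to 1383 CPM, median 979) had 0 counts in all 6 livers. The epithelial cadherin Cdh16 and the brush-border peptidases Ggt1 and Mep1a also had 0 counts in every liver, with kidney medians of 913, 768 and 788 CPM. Lrp2, the megalin receptor for filtered protein, ran from 2321 to 3422 CPM in kidney and reached 2.54 CPM in liver. The sodium pump subunit Atp1b1 was high in kidney (median 2023 CPM) but was expressed in liver too (median 98.8 CPM). Of the 3147 genes called higher in kidney beyond 2-fold, 403 had 0 counts in all livers. Of the 1847 called higher in liver, 40 had 0 counts in all kidneys. The floor of 3 counts was 0.0420 CPM in the livers and 0.0211 CPM in the kidneys, and the 2 tables were counted differently. Exon overlap was present in 1732 of the 4994 called genes, beside 5807 of all 19253 shared genes, tested or not. The part of depth and counting in these zeros was not tested.

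**Figure D1:**
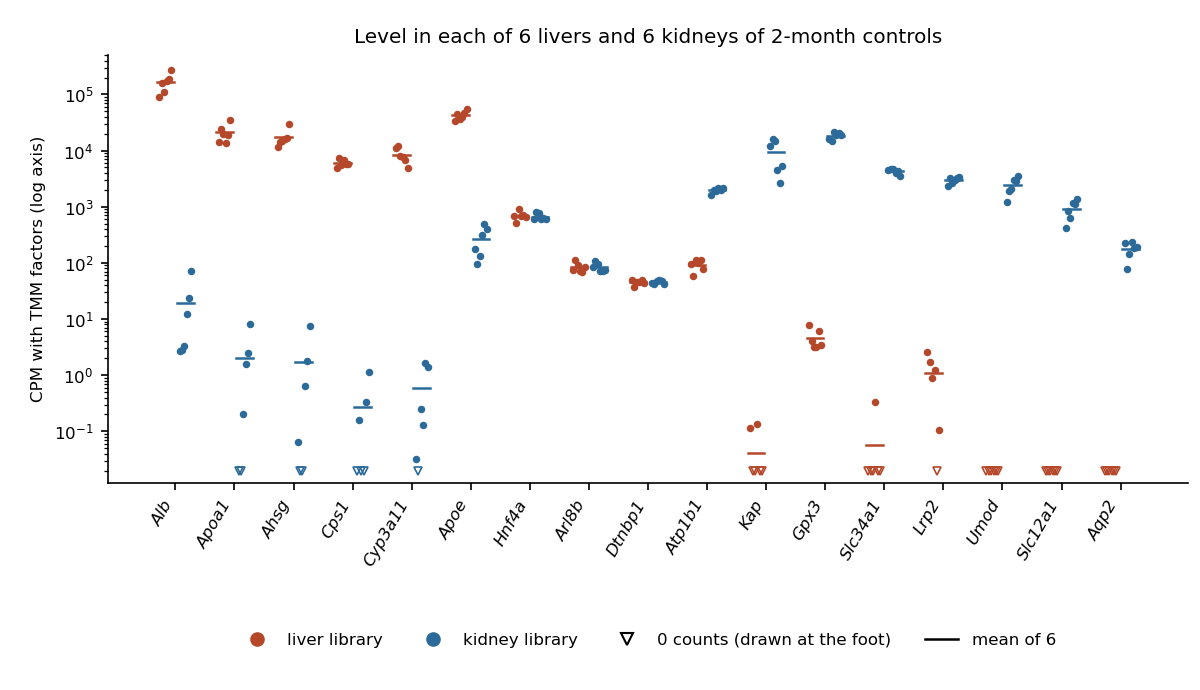
CPM with TMM factors (log axis) of 17 genes in each of 6 livers (red) and 6 kidneys (blue); short lines are means of 6, and open triangles at the foot are libraries with 0 counts. Alb to Cyp3a11 sit high in all livers and low in all kidneys, Kap to Aqp2 the reverse, and Hnf4a, Arl8b and Dtnbp1 overlap.

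Promoters are shown for 4 genes described here, since liver enzymes and kidney genes each lay together on 1 side of the comparison. The promoters are the RefSeq windows on GRCm38.p6 from 250 bases before to 50 after the start, printed 5′ to 3′ on the gene's strand, with the named motif in capitals.
Cyp3a11: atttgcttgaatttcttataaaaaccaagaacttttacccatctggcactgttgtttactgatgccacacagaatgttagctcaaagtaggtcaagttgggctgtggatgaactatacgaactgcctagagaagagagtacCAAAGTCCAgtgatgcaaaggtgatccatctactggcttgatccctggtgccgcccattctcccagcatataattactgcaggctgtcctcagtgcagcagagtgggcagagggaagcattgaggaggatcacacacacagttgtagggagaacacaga
Cyp8b1: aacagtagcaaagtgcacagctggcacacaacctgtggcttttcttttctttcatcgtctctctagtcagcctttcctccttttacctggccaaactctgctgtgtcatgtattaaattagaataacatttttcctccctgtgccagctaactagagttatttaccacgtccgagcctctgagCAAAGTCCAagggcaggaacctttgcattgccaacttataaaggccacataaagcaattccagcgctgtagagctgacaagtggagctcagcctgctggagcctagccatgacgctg
Kap: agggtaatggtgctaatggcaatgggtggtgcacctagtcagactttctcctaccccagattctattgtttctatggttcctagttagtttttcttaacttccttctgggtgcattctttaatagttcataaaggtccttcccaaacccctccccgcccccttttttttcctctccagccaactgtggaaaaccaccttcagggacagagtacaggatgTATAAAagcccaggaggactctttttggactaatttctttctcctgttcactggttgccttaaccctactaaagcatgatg
Umod: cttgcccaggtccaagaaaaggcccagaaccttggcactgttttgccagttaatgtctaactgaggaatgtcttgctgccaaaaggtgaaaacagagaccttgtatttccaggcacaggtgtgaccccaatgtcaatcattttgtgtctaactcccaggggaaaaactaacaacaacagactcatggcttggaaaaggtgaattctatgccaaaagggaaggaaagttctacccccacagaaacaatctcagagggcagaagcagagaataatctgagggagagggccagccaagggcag
Cyp3a11, at chr5:145879805-145880104 on the minus strand, holds the HNF4 motif CAAAGTCCA 109 bases before its start, and Cyp8b1, a bile acid hydroxylase at chr9:121916256-121916555 on the minus strand, holds the same letters 67 bases before. Kap, at chr6:133853618-133853917 on the minus strand, holds the TATA box TATAAA 31 bases before. The windows of Cyp3a11 and Cyp8b1 also hold a TATA box motif, and that of Cyp3a11 holds the FOX motif TGTTTAC, all left in lower case. In Cyp3a11 the TATA box motif lies near the 5′ end of the window, far from the start. Umod, at chr7:119479213-119479512 on the minus strand, holds none of the 7 motifs searched.

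Motifs were searched on both strands in the 10787 tested genes with a promoter in the table, and shares are descriptions without a test. CAAAGTCCA was present in 3.92% of the 357 promoters of genes over 5 log2 higher in liver, 0.627% of the 798 over 5 log2 higher in kidney and 0.658% of all. The shares in the same sets were 7, 2.76 and 3.11% for the C/EBP motif TTGCNCAA. For the FOXA motif TGTTTGC the shares were 10.4, 3.63 and 4.69%, and for the related FOX motif TGTTTAC, which shares its first 5 letters, 6.16, 4.51 and 3.36%. TATAAA was present in 25.2% of the liver set, 12.8% of the kidney set and 9.47% of all. Of the motifs of kidney factors, TFCP2L1's (CCAG, any 6 bases, CCAG) was at 5.6, 5.51 and 4.65%, and ESRR's (TCAAGGTCA) was at 0.56% in the liver set, in 1 promoter of the kidney set and at 0.343% of all. The liver sets contain related genes with related promoters (the HNF4 matches include Cyp2c40, Cyp2c67 and Cyp2c68), and these 7 motifs were chosen with the shares in view.

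Plasma protein genes were liver genes almost throughout. Of 29 carrier and acute-phase genes tested, 28 were higher in liver and none in kidney, with a median log2 difference of 9.98 beside -0.19 over all genes. Ambp, the precursor of the inhibitor bikunin, ran from 3259 to 4615 CPM in liver and 0.890 to 2.15 CPM in kidney (log2 difference 11.55, SE 0.21, adjusted p = 3.3e-08), and Itih3, which binds hyaluronan, from 1160.3 to 2086 against 0.292 to 1.03 CPM. The thyroid hormone and retinol carrier Ttr was at 89.2, 120.4, 94.6, 47.4, 29.4 and 14.9 CPM in kidneys 40, 41, 42, 46, 47 and 48. Its male kidneys were above the female ones, opposite to Alb, as were those of Selenop, the selenium carrier, at 2550.5, 3433, 2504, 735, 665 and 611 CPM in the same order. The gene of the list that did not pass was Trf, transferrin, at 47.9 to 115 CPM, median 73.4, in liver and 10.6 to 109 CPM, median 34.04, in kidney (log2 difference 0.98, SE 0.51, adjusted p = 0.16). Trf overlaps other annotated exons over 2108 bases, so its low liver level cannot be told apart from the counting. All 19 coagulation genes were higher in liver (median 11.33). Antithrombin, Serpinc1, was 3062-fold higher by mean CPM, fibrinogen Fga 806-fold and plasminogen, Plg, 8138-fold.

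Complement was the plasma group with members on both sides. Of 23 genes, 20 were higher in liver and 3 in kidney (median 6.33). C9, a pore-forming component, ran from 241 to 1832 CPM in liver against at most 0.206 CPM in kidney. C3, the central component, ran from 6671 to 17006 CPM in liver and 9.59 to 98.7 CPM in kidney (log2 difference 8.17, SE 0.41). The 3 kidney members were Cfb, C2 and C7. Cfb, factor B, was 227 to 424 CPM in kidney and 0.848 to 3.56 CPM in liver, and C2, its neighbour and homologue, was 24.8 to 70.0 against 14.1 to 26.8 CPM. Cfb and C2 share exon sequence with other annotated genes (2246 and 1817 overlapping bases), so their liver levels cannot be told apart from the counting. C7, a late component, was low in both organs (0.753 to 4.66 CPM in kidney, at most 1.44 in liver). Among the 18 complement genes with no overlap, 17 were higher in liver and 1, C7, in kidney.

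Lipoprotein and bile acid genes were liver genes with a small kidney arm. All 20 lipoprotein genes were higher in liver (median 9.61), among them Lcat, which esterifies cholesterol on lipoproteins (558 to 828 CPM, median 717, in liver, 0.424 to 1.10 CPM, median 0.837, in kidney). Of 26 bile acid genes, 21 were higher in liver and 3 in kidney (median 5.16). Cyp7a1, the rate-limiting enzyme of bile acid synthesis, ran from 84.4 to 127 CPM in liver and at most 0.129 CPM in kidney. The basolateral uptake carrier Slc10a1 (1046 to 1486 CPM, median 1207, in liver) was 1516-fold higher there. On the kidney side were the 3 genes of apical uptake and basolateral exit known from ileum and renal tubule. Slc10a2 ran from 50.8 to 156 CPM in kidney against 2.46 to 11.1 in liver (log2 difference -3.63, SE 0.39, adjusted p = 7.2e-05). Slc51a had 0 counts in the livers and 27.2 to 100.4 CPM in kidney (at least 1402-fold higher), and its partner Slc51b was 14.7-fold higher in kidney.

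Nitrogen metabolism divided by step. All 7 urea cycle genes were higher in liver (median 2.06), but by very different amounts. Arg1, the final arginase, was at most 0.730 CPM in kidney against 1608 to 2399 CPM in liver, whereas Asl, which releases arginine, was 155 to 195 CPM in kidney against 623 to 853 CPM (log2 difference 2.06, SE 0.13, adjusted p = 1.8e-06). Of 50 amino acid breakdown genes, 41 were higher in liver and 5 in kidney (median 2.35). Gnmt, a methyl-group buffer, ran from 1953 to 3463 CPM in liver against 13.7 to 18.4 in kidney, and Tdo2, the first step of tryptophan breakdown, from 1217 to 3591 against 0.123 to 0.730 CPM. Dao, the D-amino acid oxidase, ran the other way, at 252 to 392 CPM, median 279, in kidney and at most 0.173 CPM in liver, a ratio of 7093-fold (95% counting interval 2427 to 34394). Gatm, which makes the creatine precursor guanidinoacetate, was 777 to 1297 CPM in kidney and 13.04 to 32.6 in liver (log2 difference -5.46, SE 0.16). The other members higher in kidney were Acmsd, Afmid and Aldh4a1, at 4.14, 1.72 and 1.47 times the liver mean.

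Of 16 genes of glucose production and storage, 14 were higher in liver and 1, Pck2, in kidney (median 1.24; with library totals 7 and 5). Gckr, a regulator of hepatic glucose use, ran from 142 to 275 CPM in liver and at most 0.292 in kidney. Of 26 genes of fatty acid oxidation and ketogenesis, 15 were higher in liver and 5 in kidney (median 0.70, and -0.43 with library totals, where 9 were higher in liver and 11 in kidney). Oxct1, which lets a tissue burn ketone bodies, ran from 1079 to 1558 CPM in kidney and 3.65 to 21.9 in liver (log2 difference -7.55, SE 0.33, adjusted p = 6.7e-07). The acetyl carrier Crat, the kinase Pdk4, the dehydrogenase Acadm and the receptor Ppara were the others of these 5, by 2.19, 2.89, 1.497 and 1.53 times in mean CPM. Fatty acid and cholesterol synthesis had 26 of 34 genes higher in liver and 1, Me1, higher in kidney (median 1.61), with Sc5d, a late step of cholesterol synthesis, 55.3-fold higher in liver.

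Detoxifying families were liver-weighted with kidney members of their own. Of 61 cytochromes P450 of families 1 to 4, 44 were higher in liver and 7 in kidney (median 7.28). The 7 were Cyp1b1, Cyp2s1, Cyp2j11, Cyp4a31, Cyp2j13, Cyp2d12 and Cyp4b1. Cyp2j11 had 0 counts in the livers and 122 to 175 CPM in the kidneys, at least 3502-fold higher, and Cyp4b1 was listed at 2993, 3699.9, 3699, 181, 391 and 113 CPM in kidneys 40, 41, 42, 46, 47 and 48, a clean gap between the male and the female libraries. Of 18 glucuronosyltransferases, 11 were higher in liver and 6 in kidney (median 4.22), with Ugt2b5 1001-fold higher in liver. Ugt2b38 ran the other way (33.4 to 1246 CPM, median 426, in kidney, 0 to 75.8 CPM, median 5.69, in liver). Ugt1a2, Ugt1a7c and Ugt1a10 were also higher in kidney, but Ugt1a genes share their last exons, so reads may be split between them. Of 23 glutathione S-transferases, 16 were higher in liver and 2, Gstm5 and Mgst3, in kidney. All 17 major urinary protein genes tested, which encode liver-made pheromone carriers, were higher in liver, and 8 of them had 0 counts in the kidneys. They are near-identical copies, so the level of a single Mup gene is uncertain. Their sum ran from 2782 to 40429 CPM in the livers and reached 1.93 CPM in the kidneys.

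Transcription factors of the liver list were higher in liver for 18 of 21 genes and in kidney for 2 (median 5.32). Onecut2 ran from 72.0 to 112 CPM in liver and at most 0.0972 in kidney, and Creb3l3, a factor of the fasting and acute-phase responses, from 272 to 552 against at most 0.644. The receptor Ppara was 1 of the 2 higher in kidney. Hnf4a did not pass the test (log2 difference 0.05, SE 0.17, adjusted p = 0.81), with 524 to 896 CPM, median 689.6, in liver and 594 to 793 CPM, median 617, in kidney. The 95% interval of its log2 difference ran from -0.34 to 0.43, and with library totals in place of TMM factors the difference was -1.09.

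**Figure D2:**
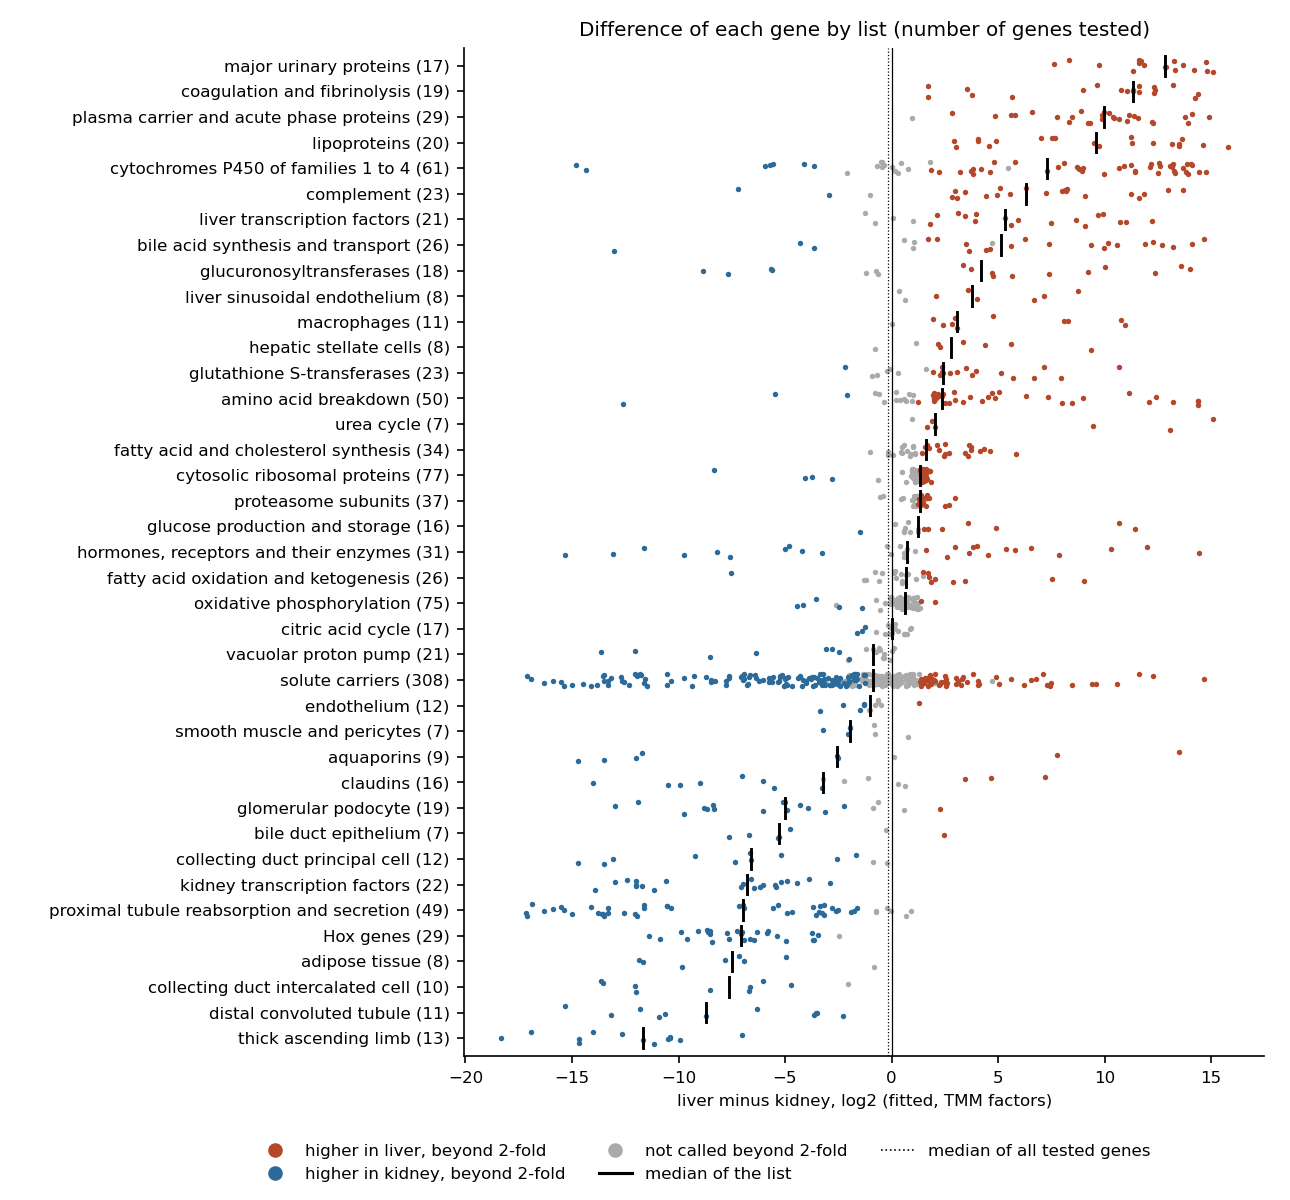
Fitted log2 difference (liver minus kidney, x axis) of every tested gene in each list (y axis, number tested in brackets); red and blue points were called beyond 2-fold, grey points were not, ticks are list medians and the dotted line is the median of all genes, -0.19. Coagulation, lipoprotein and major urinary protein genes sit on the right, thick ascending limb genes at the far left, and ribosomal, proteasome and respiratory chain genes near the centre.

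Along the nephron, the lists were nearly all on the kidney side. Of 19 podocyte genes, 17 were higher in kidney and 1 in liver (median -5.01). Podxl, the surface sialoprotein that keeps foot processes apart, ran from 137 to 240.2 CPM in kidney and 7.19 to 14.3 in liver (log2 difference -4.30, SE 0.16, adjusted p = 1.3e-07), and Col4a3, a collagen of the glomerular membrane, from 249.5 to 354 against at most 1.56. In whole organs, fewer cells of a type and less RNA per cell cannot be told apart.

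Proximal tubule genes of reabsorption and secretion were higher in kidney for 45 of 49 and in liver for 2 (median -6.98), and 9 of the 49 had 0 counts in all livers. Slc7a9, the cystine carrier subunit, was 96.9 to 153 CPM, median 126, in kidney and had 1 count over the livers, a ratio of 9053-fold (95% counting interval 1625 to 357585). Slc6a18, a neutral amino acid carrier, ran from 335 to 829 CPM and at most 0.136 CPM in liver. The liver had more of the sulfate exchanger Slc26a1 (173 to 318 CPM, median 290.1, against 123.1 to 243 CPM, median 149), whose log2 difference was -0.46 with library totals. All 13 thick ascending limb genes were higher in kidney (median -11.65), 8 of them with 0 counts in the livers. Beside Umod and Slc12a1 these included Egf, at 946 to 2156 CPM in kidney and 0.363 to 1.04 in liver (log2 difference -11.17, SE 0.34, adjusted p = 8.4e-08), and the calcium sensor Casr at 63.2 to 156 CPM, median 114, in kidney. The summed level of this list was 3102 to 7754 CPM in kidneys and 0.747 to 1.23 CPM in livers.

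All 11 distal convoluted tubule genes were higher in kidney (median -8.72). Kl, the coreceptor for the phosphate hormone FGF23, was steady over the kidneys at 823, 1024, 881, 831, 863 and 823 CPM in numbers 40, 41, 42, 46, 47 and 48, with 1 count over the livers. The thiazide-sensitive cotransporter Slc12a3 ran from 474 to 1041 CPM in kidney and at most 0.624 in liver. Of 12 principal cell genes, 10 were higher in kidney (median -6.61), among them the water channel Aqp2 (78.4 to 238 CPM, median 187, 0 counts in liver, at least 4210.3-fold higher) and Tfcp2l1, a factor of the collecting duct (219.9 to 438 CPM, median 336, against 3.399 to 17.5 CPM, median 8.65). All 10 intercalated cell genes were higher in kidney (median -7.62), with the chloride exchanger Slc26a4 at 59.2 to 126 CPM. All 22 kidney transcription factors were higher in kidney (median -6.79), among them Mecom (30.3 to 59.0 CPM, median 45.6, against 0.535 to 1.70 CPM, median 0.905, log2 difference -5.45, SE 0.17, adjusted p = 4.6e-08), Esrrg and Irx3.

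All 29 Hox genes tested, which set position along the body axis in the embryo, were higher in kidney (median -7.05). Their summed level was 354 to 561 CPM in kidneys and 3.87 to 19.3 CPM in livers. Hoxb8 ran from 21.8 to 46.05 CPM in kidney and at most 0.535 in liver. Of the 29, 8 had 0 counts in every liver, and 15 share exon sequence with another gene, often a neighbour in the cluster.

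Channel and junction families split by member. Of 9 aquaporins, 6 were higher in kidney and 2 in liver: Aqp9, the hepatocyte glycerol channel (465 to 639 CPM, median 569.6, in liver, at most 0.0859 in kidney), and Aqp8 (141 to 556 CPM, median 309.6, against 0.782 to 2.69 CPM, median 1.16). Aqp1, of the proximal tubule, was 535 to 789 CPM in kidney but also 77.0 to 143 in liver. Of 16 claudins, which set tight junction permeability, 10 were higher in kidney and 4 in liver. The 4 were Cldn1, Cldn3, Cldn14 and Cldn12 (ratios of mean CPM 10.04, 24.1, 139 and 1.55), and Cldn12 turned to -0.51 with library totals and -0.04 without the top 50 genes. Cldn10 had 0 counts in liver and 97.6 to 142 CPM, median 115, in kidney. Of 21 vacuolar proton pump subunits, 14 were higher in kidney and none in liver (median -0.87); the intercalated cell form Atp6v1b1 had 0 counts in liver, while the general form Atp6v1b2 differed 5.58-fold. Over the whole solute carrier family, 165 of 308 genes were higher in kidney and 83 in liver (median -0.87). Shares over all tested genes were 39% and 31.5%. Beside Slc10a1, the liver members with the smallest p were the manganese exporter Slc30a10, the thiamine carrier Slc19a2 (166 to 237 CPM, median 186, against 10.99 to 15.1 CPM, median 13.5) and the glutamine carrier Slc38a3 (1866 to 2914 CPM, median 2421, against 46.03 to 53.5 CPM, median 50.2).

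Hormone genes were called on both sides. Of 31 hormone, receptor and hormone-enzyme genes, 19 were higher in liver and 10 in kidney (median 0.71, and -0.43 with library totals). Over all tested genes 31.5% were higher in liver and 39% in kidney. Genes of circulating factors higher in liver were, besides Agt, the angiotensinogen gene, Igf1 at 951 to 1910.0 CPM, median 1039, against 8.93 to 17.1 CPM, median 13.5, and Hamp, hepcidin, at 396 to 2085 CPM against at most 0.129. Igfbp3, a carrier of insulin-like growth factors named after its values were seen, was higher in kidney (207 to 324 CPM, median 241, against 19.96 to 37.7 CPM, median 25.1, in liver). Kidney had more of 2 enzymes of the angiotensin cascade: Ren1, renin, which cleaves angiotensinogen, at 34.2 to 152 CPM, median 100.3, against 0 to 1.82 CPM, median 0.260 (log2 difference -7.59, SE 0.61, adjusted p = 3.3e-06), and Ace, which acts on the product, at 162 to 411 CPM, median 239, against 0.446 to 1.61 CPM, median 0.738 (log2 difference -8.20, SE 0.27, adjusted p = 6.5e-08). Calcium and phosphate receptors were kidney genes too. Vdr, the vitamin D receptor, ran from 179.8 to 251 CPM in kidney and at most 2.30 in liver, Pth1r from 485 to 675 against 8.64 to 33.3, and Cyp24a1, which degrades active vitamin D, had 0 counts in liver. The glucagon receptor Gcgr was 13.7-fold higher in liver.

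Paired genes that encode the same step in different tissues gave a measure within each library. In 18 pairs of related genes, the share of one member was computed from CPM per kilobase of exon, so that library scaling drops out. The libraries of the 2 organs did not overlap in 17 pairs, and the major form changed between organs in 13. Both members were called in opposite directions in 13 pairs. Mat1a made 96.7 to 98.9% of its sum with Mat2a, the other gene for S-adenosylmethionine synthesis, in livers and 0 to 0.552% in kidneys. Lactate dehydrogenase Ldha made 98.5 to 99.7% of its sum with Ldhb in livers and 14.9 to 23.9% in kidneys. For cortisol-type hormones, the activating Hsd11b1 made at least 99.98% of its sum with the inactivating Hsd11b2 in livers and 4.57 to 39.9% in kidneys.

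Other pairs kept their major form. Pck1, the cytosolic enzyme of glucose production, made 99.89 to 99.98% of its sum with Pck2 in livers and 99.40 to 99.77% in kidneys, with 2622 to 6815 CPM, median 3594, in liver and 1133 to 2060.2 CPM, median 1766, in kidney (log2 difference 1.22, SE 0.21, adjusted p = 7.8e-04). Fbp1 made at least 95.3% of its sum with Fbp2 in every library of both organs. The log2 difference of Fbp1, 0.86, turned negative with library totals (-0.28). Acaca and Acacb, which start fatty acid synthesis and restrain its oxidation, were the pair whose shares overlapped (24.7 to 45.6% Acaca in livers, 18.05 to 39.2% in kidneys).

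**Figure D3:**
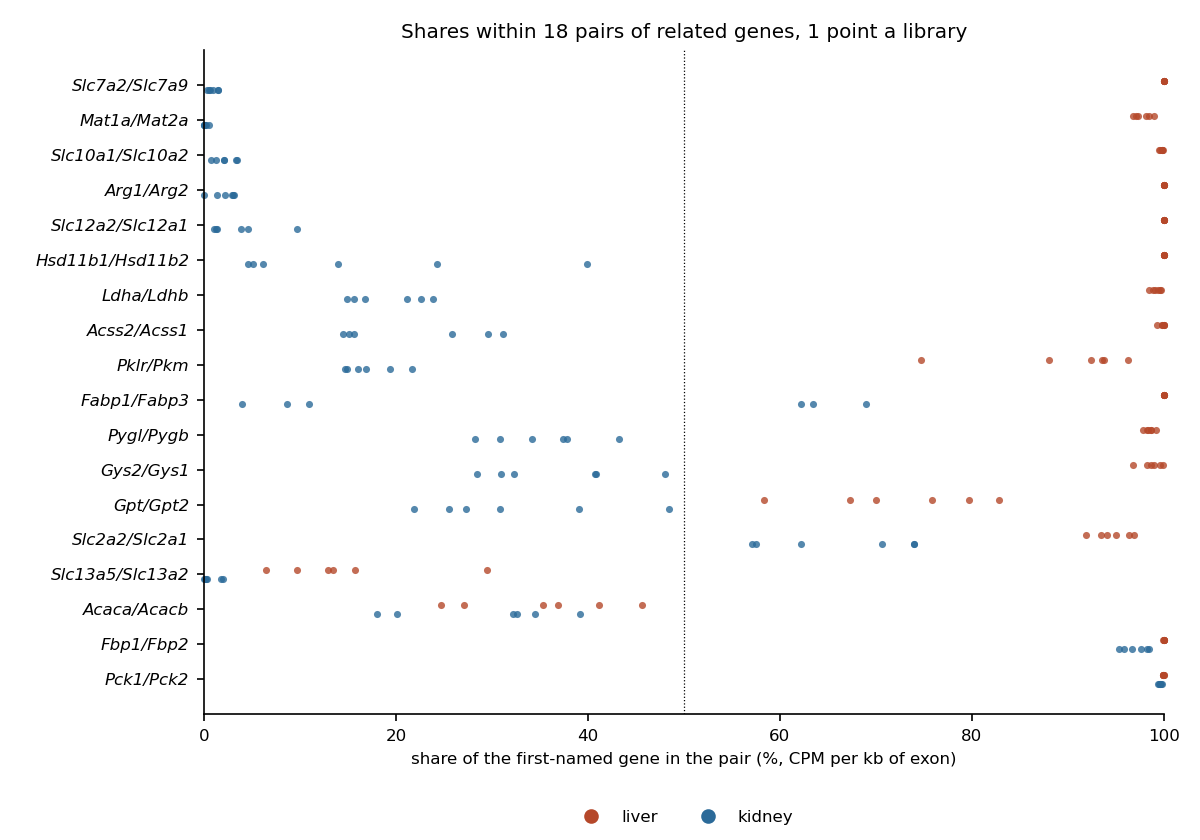
Share (percent, x axis) of the first-named gene in the summed CPM per kilobase of exon of 18 gene pairs (y axis), 1 point per library, livers red and kidneys blue; the dotted line marks equal shares. Mat1a/Mat2a runs from above 96% in every liver to below 2% in every kidney, while Pck1/Pck2 stays above 99% in both.

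Housekeeping complexes had medians towards liver whose size rests on the scaling. With TMM factors 71 of 77 cytosolic ribosomal protein genes were higher in liver and 5 in kidney (median 1.33), whereas with library totals 16 were higher in liver and 7 in kidney (median 0.20). Rps6 ran from 315 to 709.9 CPM in liver and 137 to 185 in kidney. Among the 5 against the rest, Rpl24 (0 to 0.755 CPM, median 0.383, in liver, 92.1 to 129 CPM, median 116, in kidney), Rpl23a and Rpl35 overlap other annotated exons over 484, 528 and 821 bases. Their liver levels cannot be told apart from the counting, and of the 40 members with no overlap 39 were higher in liver and 1 in kidney. Of 37 proteasome subunits, 35 were higher in liver and 1, Psmb5, in kidney (median 1.32, and 0.18 with library totals). The immunoproteasome subunits Psmb10 and Psmb9 had the smallest p of the list (43.7 to 75.6 CPM, median 53.2, against 6.34 to 10.8 CPM, median 9.02, and 16.7 to 34.9 CPM, median 24.1, against 2.99 to 5.70 CPM, median 4.17).

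The calls of the mitochondrial lists turned with the scaling. Of 75 oxidative phosphorylation genes, 49 were higher in liver and 7 in kidney (median 0.61 beside -0.19 over all genes), and with library totals 1 and 44 (median -0.52 beside -1.32). Of 17 citric acid cycle genes, 5 were higher in liver and 5 in kidney (median 0.04, negative under every other scaling tried). Shares over all tested genes were 31.5% and 39%. Kidney members included Idh3a (119.8 to 147 CPM, median 139, in kidney, 47.9 to 69.9 CPM, median 56.6, in liver), Ogdh (559 to 793 CPM, median 633, against 147 to 289.9 CPM, median 208), Idh2 and Dlst. The liver members were Fh1, Sdhb, Sdhd, Sucla2 and Suclg1, and with library totals none of the 17 was higher in liver. Few abundant genes were shown to be equal: 4 genes of at least 1 log2 CPM had a 95% interval of the log2 difference within 0.25 of 0. These were Arl8b, a lysosomal GTPase (70.1 to 111 CPM, median 79.9, in liver, 70.6 to 106 CPM, median 80.2, in kidney), the histone chaperone Nap1l4, the lysosome-related sorting protein Dtnbp1 (37.05 to 50.2 CPM, median 45.8, against 41.97 to 50.04 CPM, median 45.9) and the actin-nucleating subunit Arpc4. These intervals are those of TMM scaling: with library totals the log2 differences of Arl8b, Nap1l4, Dtnbp1 and Arpc4 were -1.15, -1.14, -1.15 and -1.15.

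Lists named for cells other than hepatocytes and tubule epithelium also differed. General endothelial genes were higher in kidney for 11 of 12 (median -1.03), for example the VEGF receptor Flt1 (46.7 to 79.4 CPM, median 56.8, against 10.05 to 16.02 CPM, median 11.2), with Ehd3 the exception, whereas all 8 liver sinusoidal endothelial genes were higher in liver (median 3.79), for example Dnase1l3 (47.2 to 97.3 CPM, median 76.0, against 0.0524 to 1.17 CPM, median 0.402). Macrophage genes were higher in liver for 10 of 11 (median 3.05). The Kupffer cell lectin Clec4f ran from 68.3 to 190.0 CPM and at most 0.344 in kidney, and the general macrophage gene C1qb was 8.24-fold higher in liver. Of 8 stellate cell genes, 7 were higher in liver, led by Reln (51.0 to 98.3 CPM, median 60.9, against 1.91 to 5.11 CPM, median 2.70), and Des was higher in kidney. Of 7 bile duct genes, 5 were higher in kidney, including the keratin Krt7 (39.8 to 71.0 CPM, median 63.9, against 0 to 3.403 CPM, median 1.52). Which kidney cells held these transcripts, tubule epithelium included, was not tested. Sox9 was higher in liver (1.96 to 5.81 CPM, median 3.11, against 0.288 to 1.68 CPM, median 0.470). Lymphoid genes were near the detection limit in both organs: summed levels of 7 T and NK cell genes reached 9.36 CPM in liver and 5.97 CPM in kidney, with 1 of 7 called.

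Adipose transcripts were a feature of single kidneys. Summed CPM of 8 adipose genes was 643, 96.7, 2.06, 375, 0.659 and 56.9 in kidneys 40, 41, 42, 46, 47 and 48 and 2.04 to 15.01 in the livers. Adipoq, adiponectin, was at 62.8, 8.43, 0, 41.998, 0 and 2.92 CPM in the same order, and the brown fat gene Ucp1 was high in kidney 40 (98.6 CPM) but not in kidney 46 (0.214 CPM). The list was called higher in kidney for 7 of 8 genes, and without numbers 40 and 46, a choice made after the data had been seen, for 2 of 7. Of 11 adrenal, 11 pancreas, 6 skeletal muscle and 6 lung markers, 1, 1, 2 and 3 passed the expression filter. The pancreas gene was the elastase Cela1, present in both organs (35.2 to 141 CPM, median 103, in liver, 42.5 to 74.3 CPM, median 66.0, in kidney).

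Sex differences were tested within each organ. At an adjusted p under 0.05, 192 genes differed between males and females in the livers (1.41%), 93 higher in males (0.684%) and 99 in females (0.728%). In the kidneys 320 differed (2.35%), 182 higher in males (1.34%) and 138 in females (1.02%), and 27 genes were called in both organs. These 27 were 14.1% of the liver calls and 8.44% of the kidney calls, and 23 of them had the same direction. The liver minus kidney difference itself was unequal between the sexes for 81 genes (0.596%). Its signed log2 value was higher in males for 33 (0.243%) and in females for 48 (0.353%), whichever organ had the higher level. Calls rested on 3 libraries a sex and on single numbers: without number 47 the count was 13 in place of 81, and leaving out each number in turn gave 67 to 164 liver and 128 to 221 kidney calls.

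Among the 8 such genes with the smallest p, 5 had the wider gap in liver. Hao2, a hydroxyacid oxidase, averaged 0.485 ± 0.139 CPM in male livers and 208 ± 39.8 in female livers (SD, n = 3 each), but 248 ± 55.5 and 871 ± 200.2 in kidneys (difference of log2 differences -6.98, SE 0.34). Cyp2a4, a steroid hydroxylase, was opposite in the organs: 0.253 CPM in male and 1264 in female livers, against 321 and 71.0 in kidneys (-14.27, adjusted p = 0.0022). Cyp4a12a was higher in males of both organs, by more in liver (1282 against 1.84 CPM) than in kidney (397 against 11.7 CPM). Nox4, an NADPH oxidase, averaged 55.4 CPM in male and 5.24 in female livers and 296 and 421 in kidneys. In the pump subunit Atp6v0d2 the liver was again the organ with the wide gap (1.27 against 23.1 CPM).

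The other 3 had their wide gap in kidney. Acsm3, a medium-chain acyl-CoA ligase, averaged 448 ± 211 CPM in male and 9.08 ± 0.104 in female kidneys, and 61.8 and 47.4 in livers (difference -5.21, SE 0.21, adjusted p = 8.1e-05). Slco1a1, an organic anion carrier, averaged 437 CPM in male and 0.0785 in female kidneys, and 1063 and 208 in livers. Kynu, of tryptophan breakdown, was lower in male kidneys (4.98 against 39.6 CPM), with 333 and 236 CPM in livers. The amino acid carrier Slc7a13, with the smallest p for sex in kidney (adjusted p = 3.1e-06), was 588, 704, 699.5, 2.61, 2.87 and 2.53 CPM in kidneys 40, 41, 42, 46, 47 and 48 and had 0 counts in liver. The sulfotransferases Sult2a1 and Sult2a2 and the P450 Cyp2b9 were the liver counterpart, averaging 413, 328 and 949 CPM in female livers, with no male mean above 0.333 CPM. Of the 29 plasma protein genes above, 10 were called for sex in kidney and 0 in liver. In kidney 6 of them were higher in females (Ahsg, Alb, Gc, Hpx, Itih4 and Serpina6) and 4 in males (Azgp1, Itih2, Selenop and Ttr). Summed over the 29 genes, the level was higher in male kidneys (2687 to 3676 CPM) than in female ones (848 to 1073 CPM), with Selenop averaging 2829 and 670.1 CPM of it. The part of liver-type transcripts in the kidney sex calls was not tested.

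**Figure D4:**
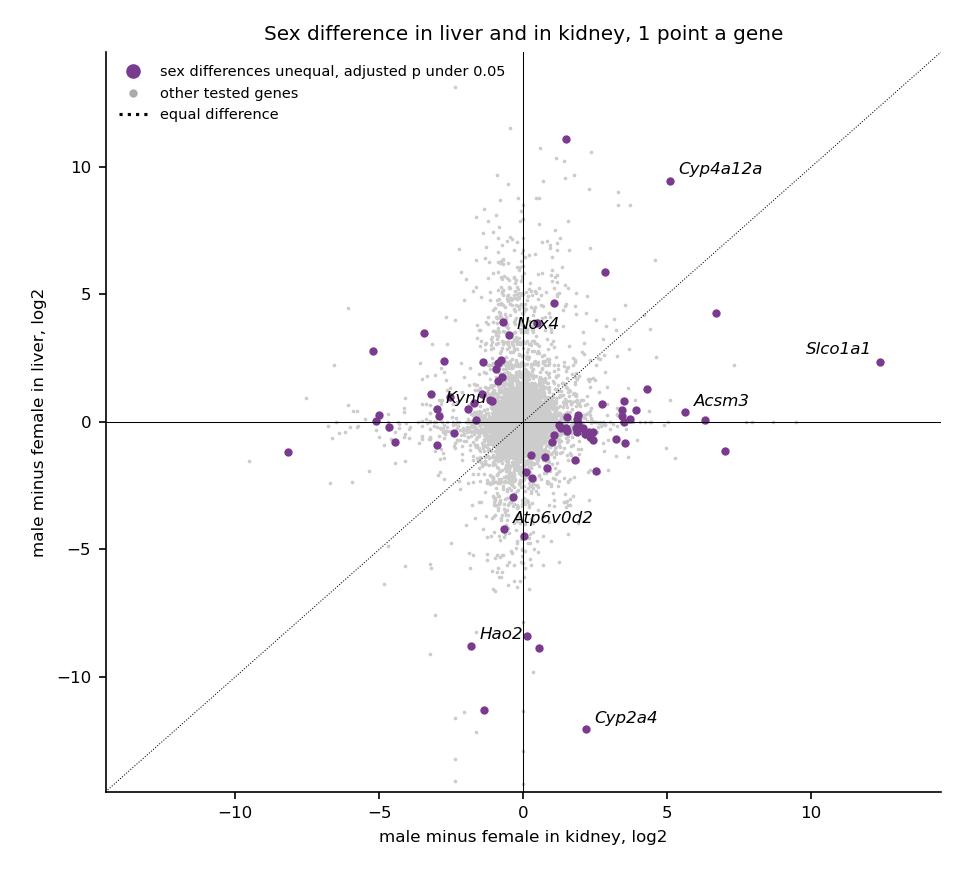
Male minus female log2 difference in kidney (x axis) and in liver (y axis) for each tested gene; purple points are the 81 genes whose sex differences were unequal, grey points the others, and the dotted diagonal marks equal differences. Cyp2a4 and Hao2 lie far down the liver axis, Acsm3 and Slco1a1 far out on the kidney axis.

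The numbers were also tested. With sex and organ in the model, 8 genes (0.0588%) differed between numbers, 4 of them expressed in both organs. Gm4737 was listed at 435, 8.84, 10.1, 1340.3, 1078 and 395 CPM in livers 40, 41, 42, 46, 47 and 48 and at 36.5, 1.26, 0.864, 80.9, 70.7 and 25.9 CPM in the kidneys, low in 41 and 42 in both organs. The ribosomal gene Rpl26 was low in number 42 in both organs, at 9.36 CPM in liver and 3.66 CPM in kidney, against at least 140.1 and 74.1 CPM in the others. H2-Q7, a class Ib histocompatibility gene, was lowest in number 41 in both organs (1.45 and 0.262 CPM), and Cyp2c23, an arachidonic acid epoxygenase, was lowest in number 40 in kidney and in number 48 in liver (1.65 and 35.3 CPM). Cyp2c23 was highest in kidney 47 (56.3 CPM) and liver 41 (530.1 CPM). The other 4 were at or near 0 in one organ, Mup9, Mup17 and Hsd3b5 in kidney and Cfd in liver, so they show no shared level. Leaving out each number in turn left 1 to 12 genes, the 1 without number 47, and a likelihood ratio test in DESeq2 called 85.

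**Figure D5:**
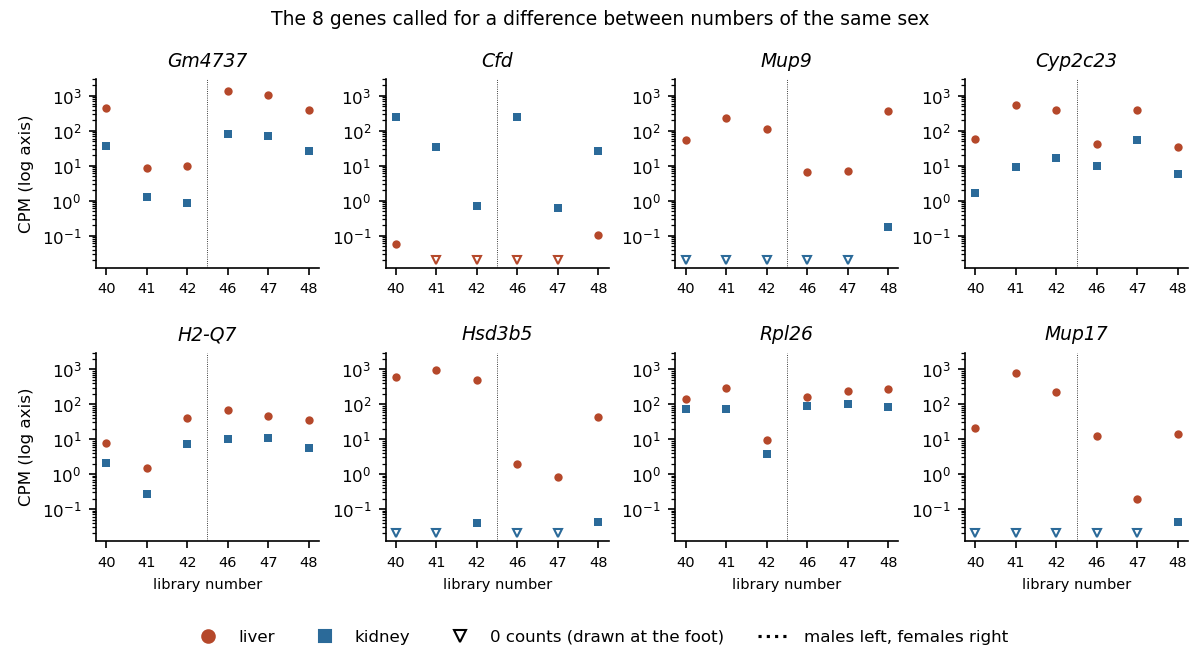
CPM (log axis) of the 8 genes called for a difference between numbers of the same sex, by library number (x axis; males left, females right of the dotted line), livers as red circles and kidneys as blue squares, with 0 counts as open triangles at the foot. Gm4737 dips in 41 and 42 and Rpl26 in 42 in both organs, while Mup9, Mup17 and Hsd3b5 lie at or near 0 in kidney.

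The young gap was set beside that of older controls in a fit of all 94 libraries. Of 15224 genes, 84 (0.552%) had another liver minus kidney difference at 28 months (8 livers, 9 kidneys) than at 2 months, and 80 (0.525%) at 22 months (9 livers, 9 kidneys). These classes pool labelled ages: 20.5 and 22 months in the younger (20.5 for 2 livers and 2 kidneys), and 27.9, 28.8 and 29.2 months in the older. Both classes hold more females than males in each organ, most unequally at 28 months, unlike the young libraries. The test weighted the sexes equally, so the few older male libraries count for more than single females. The means below are plain means over libraries. At 28 months the difference moved towards liver in 43 genes (0.282%) and towards kidney in 41 (0.269%), and at 22 months in 49 (0.322%) and 31 (0.204%). Both comparisons use the same 12 young libraries. Kidneys 6 to 11 of the older controls and treated mice had looked mismatched in number in earlier work on these data, which was not tested here, and without them the calls were 52 at 28 months and 47 at 22 months. Of the 8 genes with the smallest p at 28 months, liver changed with age in 6 and kidney in 2. The G protein subunit Gna14 averaged 2.90 ± 2.22 CPM in young livers (SD, n = 6), 21.6 ± 8.24 at 22 months and 13.2 ± 4.70 at 28 months, against 12.5, 10.9 and 7.27 in kidneys (change in the difference at 28 months 3.01, SE 0.42, adjusted p = 5.3e-06). E-cadherin, Cdh1, averaged 74.5 ± 16.6 CPM in young livers and 3.63 ± 3.36 and 7.93 ± 9.21 in older ones. Its kidney means were 165, 162 and 163 CPM, so the kidney excess of Cdh1 was wider in the older classes (change -4.40 at 22 months, adjusted p = 2.6e-06). The antiprotease Wfdc15b, the lipid droplet gene Fitm1, the protease inhibitor Serpinb1a and the ubiquitin ligase adaptor Fbxo40 were higher in older livers, with the change of Wfdc15b at 5.81 and 5.05. In Pglyrp2, a peptidoglycan amidase, and Dnase1l3 the kidney moved: Pglyrp2 averaged 0.137 CPM in young and 0.947 CPM in 28-month kidneys, and Dnase1l3 0.521 and 4.74 CPM.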

How the data were processed

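RNA of 6 livers and 6 kidneys was sequenced after TruSeq Stranded Total RNA preparation, per the labels' protocols. The authors deposited raw counts of reads for each gene. STAR, mm10 and GRCm38.p6 stand without versions in the submitters' processing notes; counter, annotation and strand use are not given in the sources here. In the liver 38924 Ensembl identifiers were listed (37607 matched a GENCODE M21 symbol), and in the kidney 19838 symbols (585 unmatched). Tally rows were left out of library sizes.

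Under R 4.3.3, edgeR 4.0.16 modelled number and tissue by robust quasi-likelihood, with a prior count of 0.125. TMM scaled the libraries, and filterByExpr (at least 10 counts, 15 in total) left out 5658 genes. Called means a Benjamini-Hochberg adjusted p under 0.05, and calls beyond 2-fold used glmTreat. The common biological coefficient of variation was 0.310. Sex was tested in 4 groups of organ and sex, and age in all 94 libraries in 24 groups. Ratios against 1 to 3 counts carry 95% counting intervals and folds against 0 counts use a floor of 3 counts over the 6 libraries; both cover counting error only. Folds are ratios of mean CPM.

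On simulated data (13111 genes) 3 of 103 calls were false, and with no change simulated 0 of 13103 genes were called. Both simulated organs had the kidney means except at the changed genes, which went up and down equally often, with no effect of library number. These counts therefore do not cover false calls where the organs differ in composition as here. Alternatives were DESeq2 1.42.0, limma 3.58.1 voom, other scalings, no filter, no block, genes without exon overlap and leaving out each number. The closest pair of libraries, kidneys 46 and 47, differed by 15.7 chi-square per degree of freedom, so none was treated as a repeat.

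Genes named were of at least 1 log2 CPM: by fold, level or p, up to 12 each way for the organs and 8 for the other tests, 2 to 4 members of each list by p, those against a list's direction, all paired genes, and 6 with equal levels. Members and lists were chosen with earlier results of these data known. Chosen after their values were seen were Hnf4a, Trf, Cela1, C7, Sucla2, the other genes read from the lists, and the 4 promoters. Some genes are not reported here.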

Additional observations from a re-analysis of the deposited data

Results flagged for a closer look

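Of 170 groups of 6 libraries tested (list sums and named genes in each organ), 19 held a library farther from the others than Dixon's 95% critical value for 6 samples allows, and chance alone flags about 1 in 20 groups. Liver 41 was the highest liver for the summed CPM of Hox genes (19.3, next 8.97), adipose genes (15.01), bile duct genes (68.0) and neutrophil genes (63.2 against at most 0.267 in the other livers, from the granule gene Ltf). It was also highest for Slco1b2 (2187 CPM) and Cyp4b1 (30.8 CPM). Liver 48 was highest for Ahsg (29684 CPM), fatty acid oxidation genes (31895 CPM) and red cell genes (1176 CPM), and lowest for principal cell genes (43.03 CPM). Liver 42 was highest for podocyte genes (552 CPM, next 275). Liver 40 was lowest for amino acid breakdown genes (37739.8 CPM) and liver 46 highest for complement (26767 CPM).

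Among the kidneys, number 48 was highest for 3 liver transcripts, Alb (71.5 CPM, next 24.1), Apoa1 (8.03 CPM) and Ahsg (7.60 CPM), and for skeletal muscle genes (4.21 CPM). Kidney 40 was highest for smooth muscle genes (261 CPM), and kidney 41 highest for Kl (1024 CPM).

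The liver minus kidney log2 difference was unequal between the sexes (males minus females, edgeR interaction test) for Acsm3 (-5.21), Hao2 (-6.98), Cyp2a4 (-14.27), Slco1a1 (-9.91), Kynu (3.45), Cyp4a12a (4.56), Nox4 (3.92) and Atp6v0d2 (-3.56). It was unequal between 28 and 2 months for Gna14 (3.01), Fitm1 (3.81), Wfdc15b (5.81), Fbxo40 (4.65), Pglyrp2 (-2.86), Hsf2bp (4.37), Dnase1l3 (-3.72) and Dzip1 (2.27). Between 22 and 2 months it was unequal for Gna14 (3.28), Fbxo40 (5.26), Cdh1 (-4.40), Serpinb1a (3.65), Fitm1 (3.28), Grid1 (4.85), Osbpl3 (2.49) and Wfdc15b (5.05).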

How the results depend on the processing

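The 9577 genes called between the organs became 8873 to 9415 when one number was left out, and the 4994 beyond 2-fold became 4494 to 4852. Without a filter the count was also 9577, 9375 of them also in the filtered test. With genes of no exon overlap, of which fewer were tested, the counts were 6138 and 3270. Fits with no replicate block called 9805 and 5151. DESeq2 called 9864 genes and limma voom 9887. Scaling moved the split between liver and kidney: RLE factors gave 4014 to 5578 and upper-quartile factors 3859 to 5719, besides the 1466 to 9777 of library totals and 2279 to 7995 without the top 50 genes. The median of all genes, -0.19, was -0.26, -0.30, -1.32 and -0.85 in these 4.

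Liver minus kidney differences that took the opposite sign, called under either scaling or under both, were, with library totals, Acaca -0.15, Cldn12 -0.51, Fbp1 -0.28, Fh1 -0.26, Hnf4a -1.09, Nap1l4 -1.14, Rpl7l1 -0.13, Sdhb -0.53, Sdhd -0.23, Slc26a1 -0.46 and Suclg1 -0.43. With sizes that leave out the top 50 genes they were Cldn12 -0.0410, Hnf4a -0.62, Nap1l4 -0.67 and Sdhb -0.0663. Medians of lists changed sign with library totals for citric acid cycle -1.10, fatty acid oxidation and ketogenesis -0.43, hormones, receptors and their enzymes -0.43 and oxidative phosphorylation -0.52, and without the top 50 genes for citric acid cycle -0.63 and oxidative phosphorylation -0.0545. The citric acid cycle median was also -0.0371 with RLE, -0.0774 with upper-quartile factors and -0.0339 with genes of no exon overlap. Over all alternatives, library totals and sizes without the top 50 genes included, 4347 values for single named genes kept their direction and side of the threshold. Of the rest with the same sign, 49 lost the call and 16 gained it.

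The tests by sex, number and age depended more on libraries and tool, and the cause was not tested. The difference by sex, 81 genes, was 144 with no replicate block, 457 with DESeq2 (no block), 43 without numbers 40 and 46 (chosen after seeing the data) and 13 to 81 with one number left out, 13 without number 47. Sex in liver, 192 genes, was 513 with DESeq2, 83 without numbers 40 and 46 and 67 to 164 with one number left out. Sex in kidney, 320 genes, was 704, 116 and 128 to 221. The number effect, 8 genes, was 85 with DESeq2's likelihood ratio test and 1 to 12 with one number left out, 1 without number 47. The age tests, 84 and 80 genes at 28 and 22 months, became 245 and 228 with DESeq2 and 52 and 47 without kidneys 6 to 11. Deviations of same-numbered livers and kidneys from their group means correlated at 0.0497 to 0.162 over genes. All 6 livers correlated best with the kidney of their own number within their sex, a hint from the data that does not settle the pairing.

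Depth limits low genes: no count over the 6 libraries allows up to 0.0420 CPM in liver and 0.0211 CPM in kidney.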

Other observations

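Other leading sex differences within each organ were these. Gstp1, a glutathione S-transferase, averaged 3878 CPM in male and 265 in female livers (log2 3.87, adjusted p = 6.4e-06 by edgeR), and 84.5 and 60.9 in kidneys. Cyp7b1, an oxysterol hydroxylase, was higher in males of both organs, at 1004 against 51.4 CPM in livers and 93.6 against 0.900 CPM in kidneys. The carbonyl reductase Cbr1 was lower in male kidneys (25.1 against 201 CPM), and so was Aldh1b1 (1.78 against 12.4 CPM). The oxygenase Fmo5 was higher there (108 against 9.56 CPM), and so was the receptor Timd2 (49.8 against 3.77 CPM). The 4 genes called in both organs with opposite directions were Cd36, Cyp2a4, Etnk1 and Mup3. Cd36, a fatty acid receptor, averaged 18.98 CPM in male and 72.4 in female livers, and 506 and 86.7 in kidneys.

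Of 7 smooth muscle and pericyte genes, 6 were higher in kidney, and Rgs5, a regulator of G-protein signalling, was higher in liver. Of 6 genes known to vary between mouse strains, the glyoxalase Glo1 was 11.4-fold higher in liver, at 683 to 2160.2 CPM against 67.2 to 153 CPM. Wdfy1 was higher in kidney, at 41.1 to 98.3 CPM against 12.6 to 32.6 CPM. Hc, complement component 5, was present in all 6 livers at 597 to 1755 CPM.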
